A study of Mus musculus with 6 samples.

Results

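The RNAs described here are the small nuclear, nucleolar and structural RNAs of mouse embryonic fibroblasts: box C/D and box H/ACA nucleolar RNAs, Cajal body RNAs, spliceosomal RNAs, U7 RNA, Y RNAs, and the structural RNAs Rn7sk, Rmrp, Rpph1 and Terc. They were chosen by gene symbol, and kept where a library held at least 1 CPM (a level relative to all of its counts on genes). Of 128 matching symbols, 30 passed, 21 had counts but stayed under that level in every library, and 77 were at 0 in all 6 libraries. The 30 stand among 14824 genes that passed the same filter, of 25793 in the count tables. The cells were primary fibroblasts of E13.5 embryos from matings of mice heterozygous for a knockout of Sptbn1 (the gene of beta-II spectrin, β2SP in the sample names) or of Smad3, grown in medium with 10% fetal bovine serum. The labels give 1 library for each of 6 genotypes: wild type (WT), Sptbn1+/-, Sptbn1-/-, Smad3+/-, Smad3-/- and the double heterozygote Sptbn1+/- Smad3+/-. The knockout alleles are not described further in the sources used here, and neither are the embryo's sex, the litter or the passage. Replicate libraries are lacking, so every difference below is between libraries, with an interval for counting error only, and differences of genotype, embryo and preparation cannot be told apart.

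Box C/D RNAs guide ribose methylation and box H/ACA RNAs guide pseudouridylation of ribosomal and spliceosomal RNA, and Cajal body RNAs do the same for spliceosomal RNA. Most of them in mammals are cut out of the introns of host genes, whereas Rn7sk, Rmrp, Rpph1 and the Y RNAs have promoters of their own and are made by RNA polymerase III. Nearly all end without the long poly(A) tail of messenger RNA and fold into compact particles with protein, so the way RNA is selected and sized before sequencing bears on how many of them a library holds.

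The counts on genes came to between 6856680 and 31125055 per library, which made 1 count worth at most 0.149 CPM. CPM below are those after TMM scaling of library size. Uniquely placed reads fell on genes at 80.1 and 81.2% in the libraries labelled Smad3-/- and double heterozygous, against 40.9 to 43.3% in the other 4, so these 2 libraries stood apart. The 18S ribosomal RNA gene Rn18s was at 349 and 1529 CPM in these 2 libraries and at 64661 to 87249 CPM in the others. Replication-dependent histone genes, whose messages also lack a poly(A) tail, summed to 4251 CPM in the Smad3-/- library, 64.7 CPM in the double heterozygous one and 561 to 704 CPM in the other 4. The targeted genes did not follow all labels. Spnb2, the older symbol of Sptbn1, was at 1419 CPM in WT, 1071 in Sptbn1+/- and 771 in Sptbn1-/-. It was at 1556 CPM in Smad3+/-, 1022 in Smad3-/- and 695 in the double heterozygote. Smad3-/- thus lay below Sptbn1+/-, and the double heterozygote below Sptbn1-/-. Smad3 was at 53.3 CPM in WT, 79.5 in Smad3+/-, 106 in Smad3-/- and 203 in the double heterozygote. Each library is therefore named by its label only. All 11 fibroblast markers exceeded 1 CPM in every library. However, in Smad3-/- 8 of the 11 were lower than in WT and 2 higher, beside 25.2 and 24.2% of all genes. The 11 markers summed to 18983 CPM there against 27698 to 57154 CPM in the others. Dcn was at 55.2 CPM in Smad3-/- and 1301 in WT. The 2 higher markers were Vim, at 5203 CPM in Smad3-/- and 2362 in WT, and S100a4, at 502 and 255 CPM. In the double heterozygote 1 of the 11 was lower and 5 higher, beside 19.1 and 21.6% of all genes. The 8 macrophage markers summed to 1437 to 2195 CPM in 5 libraries and to 57.0 CPM in the one labelled Smad3-/-. What part these library-wide differences have in the small RNA levels was not tested. In bulk RNA, fewer cells of a type and less RNA per cell cannot be told apart.

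Sequences of 10 of the RNAs are shown, without those of Rn7sk and Rpph1. They were read from GENCODE M21 transcripts on GRCm38 (the counts were made on mm9, whose coordinates are not used here), 5′ to 3′ with T for U. The first 6 were at their highest in the Smad3-/- library.
Rmrp: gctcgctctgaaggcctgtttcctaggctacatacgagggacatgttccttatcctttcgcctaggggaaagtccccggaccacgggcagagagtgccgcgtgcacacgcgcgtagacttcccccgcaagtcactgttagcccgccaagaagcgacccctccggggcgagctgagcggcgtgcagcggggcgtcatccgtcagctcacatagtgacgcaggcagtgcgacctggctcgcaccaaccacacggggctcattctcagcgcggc
Rny1: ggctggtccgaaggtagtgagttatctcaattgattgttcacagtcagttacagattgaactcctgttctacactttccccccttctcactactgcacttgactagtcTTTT
Rny3: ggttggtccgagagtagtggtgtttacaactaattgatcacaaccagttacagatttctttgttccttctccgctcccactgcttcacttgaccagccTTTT
Snora73b: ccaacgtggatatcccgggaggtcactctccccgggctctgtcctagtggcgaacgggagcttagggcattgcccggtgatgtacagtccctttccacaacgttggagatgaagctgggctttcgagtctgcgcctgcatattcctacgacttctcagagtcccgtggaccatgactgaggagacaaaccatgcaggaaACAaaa
Scarna13: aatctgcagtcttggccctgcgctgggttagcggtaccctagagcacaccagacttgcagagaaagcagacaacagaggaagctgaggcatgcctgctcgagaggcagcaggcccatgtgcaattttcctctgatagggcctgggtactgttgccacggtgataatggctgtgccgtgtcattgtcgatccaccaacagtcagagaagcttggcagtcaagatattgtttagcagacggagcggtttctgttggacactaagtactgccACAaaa
Snord17: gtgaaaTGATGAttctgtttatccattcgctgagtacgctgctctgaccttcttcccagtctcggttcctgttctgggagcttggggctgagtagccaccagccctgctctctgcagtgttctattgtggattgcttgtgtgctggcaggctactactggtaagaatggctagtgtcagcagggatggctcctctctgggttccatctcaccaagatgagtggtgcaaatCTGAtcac
Capitals in Rny1 and Rny3 mark the closing run of T typical of RNA polymerase III transcripts. Of the 127 symbols with a GENCODE sequence, 3 end in TTTT (2.36%), the third being Rnu6. Capitals in Snora73b and Scarna13 mark ACA within the last 8 bases, and in Snord17 the C box TGATGA within the first 25 and the D box CTGA within the last 25 bases, all read on the RNA strand. Rmrp lies at chr4:43492788-43493058 on the minus strand, Rny1 at chr6:47788069-47788180 (minus) and Rny3 at chr6:47781624-47781725 (plus), all outside other genes on their strand. Snora73b at chr4:132352322-132352526 (minus) lies in an intron of Rcc1 and Snhg3, Scarna13 at chr12:105031075-105031349 (minus) in an intron of Snhg10, and Snord17 at chr2:144265979-144266216 (minus) in an intron of Snx5.

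The next 4 are short. Snord47 and Snord95 were at 0 in all 6 libraries and, like Snord123, hold both boxes, whereas Snord123 and Rnu7 had counts in all 6. Snord47 and Snord95 were picked for display after their values were seen.
Snord47: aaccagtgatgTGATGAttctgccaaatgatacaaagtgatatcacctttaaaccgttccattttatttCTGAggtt
Snord95: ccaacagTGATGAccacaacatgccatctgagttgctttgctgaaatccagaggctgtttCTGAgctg
Snord123: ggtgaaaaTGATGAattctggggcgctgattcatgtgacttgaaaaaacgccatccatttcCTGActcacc
Rnu7: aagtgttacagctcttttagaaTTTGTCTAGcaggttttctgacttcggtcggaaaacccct
Capitals mark the C and D boxes and, in Rnu7, TTTGTCTAG of the site that binds the Sm-type ring of U7, which 1 of the 127 sequences holds (0.787%). Snord47 lies at chr1:161038082-161038158 (plus) in an intron of Gas5, Snord95 at chr11:48803139-48803206 (plus) in an intron of Rack1, and Snord123 at chr15:32241853-32241923 (minus) in an intron of Snhg18. Rnu7, at chr6:124741225-124741286 (minus), lies within an exon of Grcc10. Both boxes were found in 46 of 75 C/D sequences (61.3%) and in 0 of 26 H/ACA sequences. ACA near the end was found in all 26 H/ACA and in 7 of the 75 C/D sequences (9.33%). Of all 1558 GENCODE nucleolar and Cajal body transcripts, 20.7% held both boxes and 47.6% the ACA. Of the 9 Cajal body symbols, 4 held both boxes and 4 the ACA.

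All matching symbols together held 7564 CPM in the library labelled Smad3-/-, which is 0.798% of its counts on genes. The same sum was 97.2 CPM in WT, 169 in Sptbn1+/-, 179 in Sptbn1-/- and 115 in Smad3+/-, and 40.6 CPM in the double heterozygote. The Smad3-/- library was thus the highest by far and the double heterozygous one the lowest, although these 2 libraries had in common a high share of reads on genes and little Rn18s. What filled the sum differed as well. In the Smad3-/- library Rn7sk made up 54.9% of it, Rmrp 32.8% and Snora73b 3.77%. In the double heterozygote Snord123 made up 83.9% and Rnu7 8.70%. Snord123 and Rn7sk were the first and second, in either order, in the other 4 libraries, where their shares were 17.5 to 37.8% and 15.7 to 41.5%.

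By class, the structural RNAs summed to 47.5 CPM in WT, 94.7 in Sptbn1+/-, 122.5 in Sptbn1-/-, 43.2 in Smad3+/-, 6638 in Smad3-/- and 1.08 in the double heterozygote. The H/ACA RNAs followed the same order at the extremes, with 6.02, 8.98, 9.86, 10.6, 591.5 and 1.72 CPM in that order of libraries. The 9 Cajal body symbols held 61.3 CPM in Smad3-/-, 0 counts in Sptbn1+/- and 0.0637 to 0.897 CPM in the others. The C/D class varied least, with 33.3, 51.2, 33.2, 46.0, 170.9 and 34.2 CPM, because Snord123 supplied most of it outside the Smad3-/- library.

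**Figure D1:**
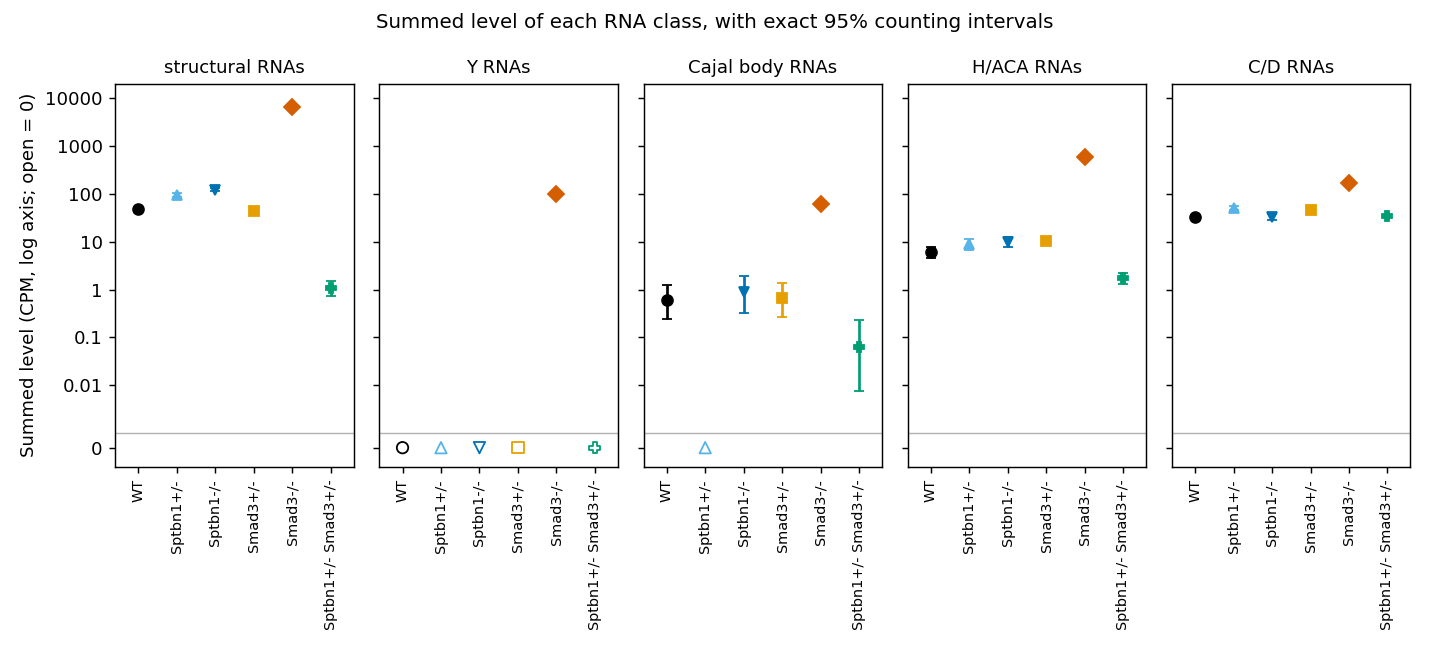
Summed level in CPM (log axis) of 5 classes of small RNA in each of the 6 libraries, with exact 95% counting intervals. Open symbols below the grey line mark sums of 0. The Smad3-/- library is the highest in each panel (6638 CPM for structural RNAs), and the double heterozygote is the lowest for structural and H/ACA RNAs.

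Rn7sk, the RNA of the 7SK particle that holds the elongation kinase P-TEFb inactive, had 23.6 CPM in WT, 64.5 in Sptbn1+/-, 74.4 in Sptbn1-/- and 18.0 in Smad3+/-. It had 4153 CPM in Smad3-/- and 0.605 CPM in the double heterozygote. Both Sptbn1 libraries lay above WT, and the 2 libraries with a high share of reads on genes lay at opposite ends of the range. The ratio to WT was 176 (95% counting interval 156 to 199) in Smad3-/-, 2.73 (2.34 to 3.19) in Sptbn1+/- and 3.15 (2.71 to 3.67) in Sptbn1-/-, and the double heterozygote was 39.0-fold lower (24.5 to 65.9). Of the 50-base stretches of Rn7sk, 68.1% also occur in other GENCODE transcripts, so its reads may be split or dropped in a way the count tables do not show.

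Rmrp, the RNA of RNase MRP, which takes part in ribosomal RNA processing, had 12.3 CPM in WT, 16.9 in Sptbn1+/-, 23.8 in Sptbn1-/-, 14.2 in Smad3+/-, 2482 in Smad3-/- and 0.255 in the double heterozygote. It was 202-fold higher than WT in Smad3-/- (171 to 240), 48.3-fold lower in the double heterozygote (23.8 to 114) and 1.93-fold higher in Sptbn1-/- (1.53 to 2.44). Rmrp and Rn7sk therefore had the same libraries at the top and at the bottom. None of the 50-base stretches of Rmrp occurs in another GENCODE transcript.

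Rpph1, the RNA subunit of RNase P, which trims the 5′ end of transfer RNA precursors, ran the other way in one library. It had 11.4 CPM in WT, 13.3 in Sptbn1+/-, 24.1 in Sptbn1-/- and 10.4 in Smad3+/-, but 0.133 CPM (3 counts) in Smad3-/- and 0.223 CPM (7 counts) in the double heterozygote. Rpph1 was thus near 0 in the same library in which Rmrp, its close relative in structure and protein partners, was at its highest. It was 85.6-fold lower than WT in Smad3-/- (28.7 to 421), 51.2-fold lower in the double heterozygote (24.1 to 130) and 2.11-fold higher in Sptbn1-/- (1.66 to 2.68). Between the Smad3-/- and double heterozygous libraries Rpph1 did not differ beyond counting error, with an interval of the ratio from 0.382 to 10.0. In GENCODE, Rpph1 lies in the span of Ccnb1ip1 on the same strand, which had at most 0.147 CPM in any library. Terc, the telomerase RNA, was low throughout: 2.09 CPM (47 counts) in Smad3-/-, 0.581 in Smad3+/-, 0.299 in Sptbn1-/-, 0.177 in WT and 0 counts in Sptbn1+/- and the double heterozygote. Its ratio of Smad3-/- to WT was 11.8 (3.09 to 100.3), from 47 and 2 counts.

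Compared per length, as CPM per kilobase of the GENCODE transcript, Rn7sk in the Smad3-/- library was at 12547, Rmrp at 9161, Snora73b at 1392, Snora73a at 1090 and Rny1 at 621. Rn7sk thus remained the most abundant after length was allowed for.

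The Y RNAs bind the Ro60 protein and take part in RNA quality control. Rny1 had 1565 counts (69.5 CPM) in the Smad3-/- library and 0 in each of the other 5, and Rny3 had 692 counts (30.7 CPM) and again 0 elsewhere. A count of 0 allows up to 0.0955 CPM in the double heterozygote, 0.265 CPM in WT and 0.448 CPM in the shallowest library, at 3 counts each. By the 95% limit of the count ratio, Rny1 was at least 213-fold and Rny3 at least 93.9-fold higher in Smad3-/- than in WT. Against the double heterozygote the limits were at least 591-fold for Rny1 and at least 261-fold for Rny3. Both RNAs are members only through the Smad3-/- library. Both Y RNAs were thus seen in 1 library alone.

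Rnu7, the U7 RNA that directs 3′ end cutting of replication-dependent histone messages, had 9.82 CPM in WT, 14.1 in Sptbn1+/-, 12.7 in Sptbn1-/- and 14.1 in Smad3+/-. It had 1.55 CPM in Smad3-/- and 3.54 in the double heterozygote. Both libraries were below all others, with no overlap of counting intervals. Rnu7 was 6.32-fold lower than WT in Smad3-/- (4.28 to 9.52) and 2.78-fold lower in the double heterozygote (2.12 to 3.65), while histone messages were highest in the first of these libraries and lowest in the second. Rnu7 lies within an exon of Grcc10, which was at 24.5 CPM in WT, 40.7 in Smad3-/- and 46.9 in the double heterozygote, so that Rnu7 was low where the gene around it was high. Whether reads that cover both genes were given to either is not stated.

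The spliceosomal RNAs, the catalytic and recognition core of the spliceosome, were nearly absent. Of 9 symbols (Rnu11, Rnu12, Rnu1a1, Rnu1b1, Rnu1b2, Rnu1b6, Rnu2, Rnu5g and Rnu6), 8 were at 0 in all 6 libraries. Rnu12, of the minor spliceosome, had 21 counts in Smad3-/- and 0 in the rest, and at 0.985 CPM of the counts on genes it fell just under the filter. All 50-base stretches of Rnu1a1, Rnu1b1, Rnu1b2, Rnu1b6, Rnu2 and Rnu6, and 82.1% of those of Rnu5g, occur in other transcripts. Reads from such copies have several sites in the genome, and the summary lines set aside 32.5 to 47.1% of all records for reads of that kind. Rnu11 shares no such stretch and was at 0 too. It lies opposite an exon of Gm28872 on the other strand, and a strand setting is not stated. The part of copy number in these zeros was not tested.

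Cajal body RNAs guide modification of spliceosomal RNA. Scarna13 had 50.5 CPM (1137 counts) in Smad3-/- and 0 to 3 counts in each other library. Scarna6 had 10.2 CPM (230 counts) in Smad3-/- and 0 to 2 counts elsewhere. Nearly all counts of both RNAs came from the Smad3-/- library, through which alone they passed the filter. The ratios to WT rested on 2 WT counts each, and were 285 (78.8 to 2360) for Scarna13 and 57.7 (15.8 to 480) for Scarna6. Of the 7 others, Scarna3a reached 11 counts in Smad3-/-, and Scarna2 and Scarna10, whose GENCODE models are 414 and 325 bases long, were at 0 in all 6 libraries.

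Among the H/ACA RNAs, Snora73a and Snora73b (U17) stood highest. U17 acts in the cleavage of the ribosomal RNA precursor rather than as a modification guide. Snora73b had 2.74 CPM in WT, 4.42 in Sptbn1+/-, 4.18 in Sptbn1-/-, 5.14 in Smad3+/-, 285 in Smad3-/- and 0.733 in the double heterozygote. Snora73a had 0.354, 0.294, 0.897, 0.969, 223.5 and 0.637 CPM in the same order. In the Smad3-/- library the pair was nearly level, whereas in the 4 libraries with fewer reads on genes Snora73b was the higher one in each. Their sequences match at 198 of 205 positions (96.6%), and 7.05% of 50-base stretches are shared, so most but not all reads can tell them apart. Both also lie opposite exons of Gm17300 on the other strand, and since a strand setting is not stated, counts of the pair could include reads of that gene. Snora73b was 104-fold higher in Smad3-/- than in WT (73.2 to 153) and 3.74-fold lower in the double heterozygote (2.11 to 6.72). For Snora73a the ratios to WT were 632 (247 to 2319) and 1.80 (0.603 to 7.24), and the second did not differ beyond counting error.

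The next H/ACA RNAs were at 34.2 CPM (Snora74a), 20.1 (Snora78), 10.1 (Snora43) and 5.15 (Snora7a) in Smad3-/-. In the other 5 libraries these 4 had 0 to 6 counts each. Snora21, Snora70, Snora17, Snora15, Snora16a and Snora64 reached 1.47 to 2.58 CPM in Smad3-/-, with 33 to 58 counts there and 0 to 3 counts elsewhere. These 10 RNAs and Snora73a passed the filter only through the Smad3-/- library, so their high level there is only a description. Snora23, which lies in an intron of Ipo7, had 1.95 CPM in WT, 1.03 in Sptbn1+/-, 2.24 in Sptbn1-/-, 2.13 in Smad3+/-, 0.888 in Smad3-/- and 0 counts in the double heterozygote. It was the H/ACA member that was not higher in Smad3-/-, where it was 2.19-fold lower than WT with an interval of 1.14 to 4.23 that reached inside 1.5-fold. By the 95% limit it was at least 15.2-fold lower in the double heterozygote than in WT.

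Among the C/D RNAs, Snord17 had 64.1 CPM (1444 counts) in Smad3-/-, 0.354 to 0.969 CPM in WT, both Sptbn1 libraries and Smad3+/-, and 0 counts in the double heterozygote. Snord22 had 63.3 CPM (1425 counts) in Smad3-/- and 0 to 7 counts elsewhere. Rnu3a, one U3 copy and a cleavage factor for the ribosomal RNA precursor, had 16.0 CPM (361 counts) in Smad3-/-, 1 count each in WT and Sptbn1+/- and 0 in the other 3. These 3 passed the filter only through the Smad3-/- library, so their sizes there are descriptions. Their ratios to WT were 181 (70.6 to 666) for Snord17, 143 (61.2 to 441) for Snord22 and 181 (32.3 to 7179) for Rnu3a. Lower down came Snord13 at 3.20 CPM, Snord118 (U8) at 3.11, Snord16a at 2.98 and Snord8 at 1.20 CPM in Smad3-/-, with 0 to 7 counts in any other library. Snord13 was at 0 in all 5 others. The other U3 symbols, Rnu3b1 to Rnu3b4, share all their 50-base stretches with other transcripts and were at 0 in all 6 libraries, while Rnu3a shares 0.606% of its stretches.

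Snord123 was the exception. It had 31.6 CPM in WT, 49.9 in Sptbn1+/-, 31.4 in Sptbn1-/-, 43.3 in Smad3+/-, 16.5 in Smad3-/- and 34.1 in the double heterozygote, from 210 to 1070 counts. The Smad3-/- library was the lowest and Sptbn1+/- the highest, with counting intervals apart (14.9 to 18.3 and 44.7 to 55.5 CPM). Every other C/D member passed the filter only through the Smad3-/- library. Against WT, Snord123 was 1.91-fold lower in Smad3-/- (1.65 to 2.22) and did not pass 1.5-fold in the other 4. The nearest was Sptbn1+/- at 1.58-fold higher (1.36 to 1.84). Its GENCODE host Snhg18 was not matched to a symbol in the tables, so reads of Snord123 cannot be told apart here from reads of the transcript around it.

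**Figure D2:**
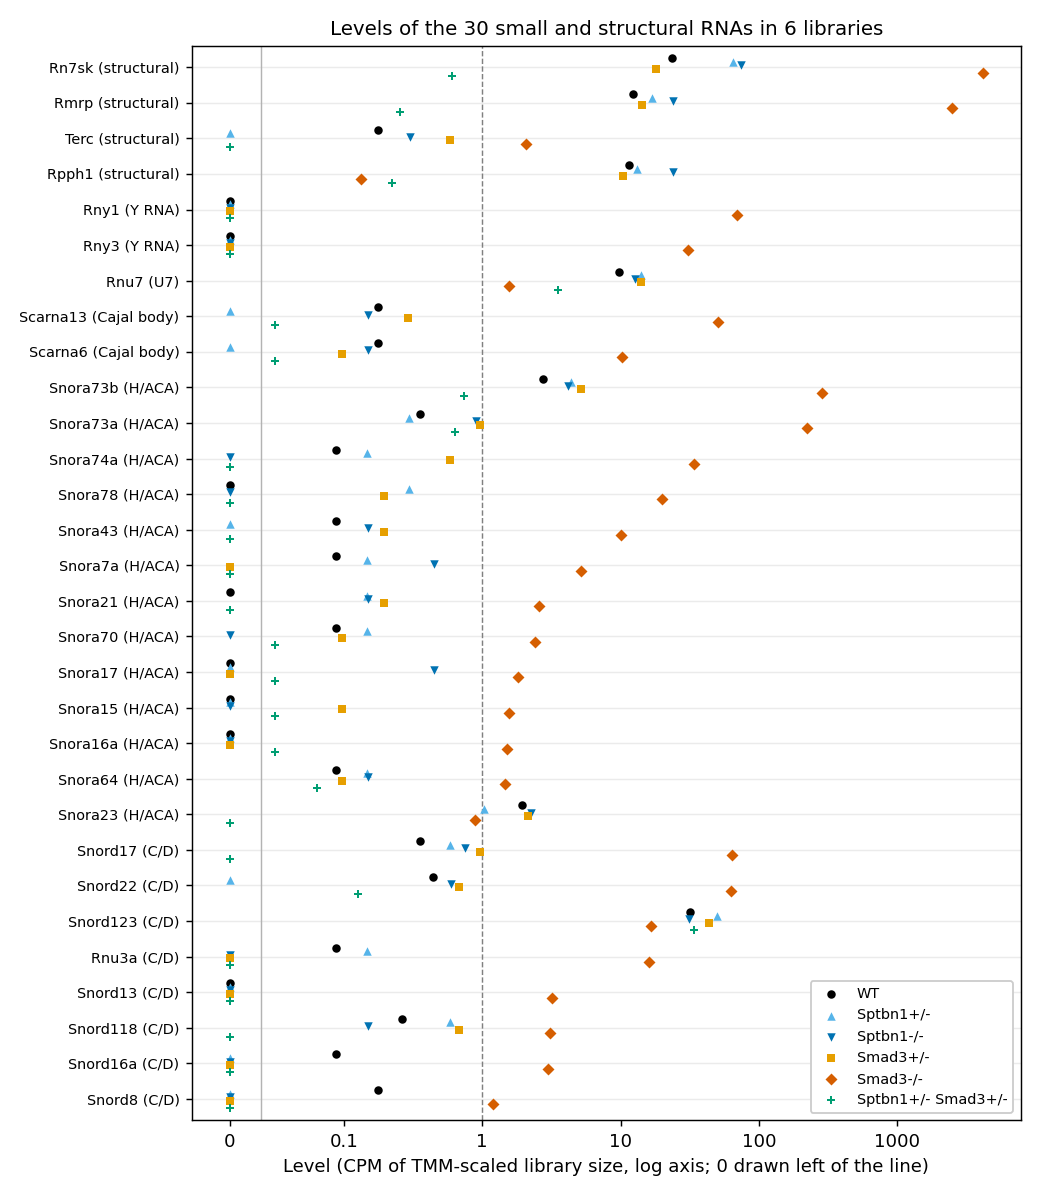
Level in CPM (log axis, 0 drawn left of the grey line) of each of the 30 RNAs in each of the 6 libraries, grouped by class. The dashed line is 1 CPM. The Smad3-/- library lies to the right of all others for 26 RNAs and to the left for Rpph1, Rnu7 and Snord123, while Snora23 is at 0.888 CPM there and at 0 in the double heterozygote.

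Across the classes, median length was greater past the filter than at 0, although detection did not rise evenly with length. In GENCODE the 30 RNAs past the filter had a median length of 137 bases (62 to 423), the 21 with some counts below it 130 bases (66 to 151), and the 76 at 0 with a sequence 85 bases (64 to 414). In the Smad3-/- library 2 of 36 RNAs under 80 bases reached 1 CPM, namely Rnu7 and Snord123. Of those from 80 to under 100 bases it was 1 of 29 (Snord16a), from 100 to under 130 bases 6 of 16, from 130 to under 200 bases 10 of 30, and from 200 bases upward 9 of 16. In WT, 4 of 16 RNAs of 200 bases or more reached 1 CPM, against 1 of 30 in the next bin down, 0 of 16 and 0 of 29 in those below, and 2 of 36 under 80 bases. In the double heterozygote the RNAs at 1 CPM or more were the same pair of short ones and no other. The C/D class was mostly short and mostly at 0: 60 of 76 symbols had no count in any library, against 4 of 26 H/ACA symbols. Within the C/D class, the 8 members past the filter had a median of 118 bases, while the 8 with counts under the filter and those at 0 both had 81, so length did not separate the latter groups. Within the H/ACA class the medians were close, at 137 bases past the filter, 131 under it and 128 at 0. Length and class are bound together here, and the share of shared 50-base stretches differed too, since most of the stretches were shared in 16 of the 76 RNAs at 0 and in 1 of the 30 past the filter. The part of each was not tested.

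**Figure D3:**
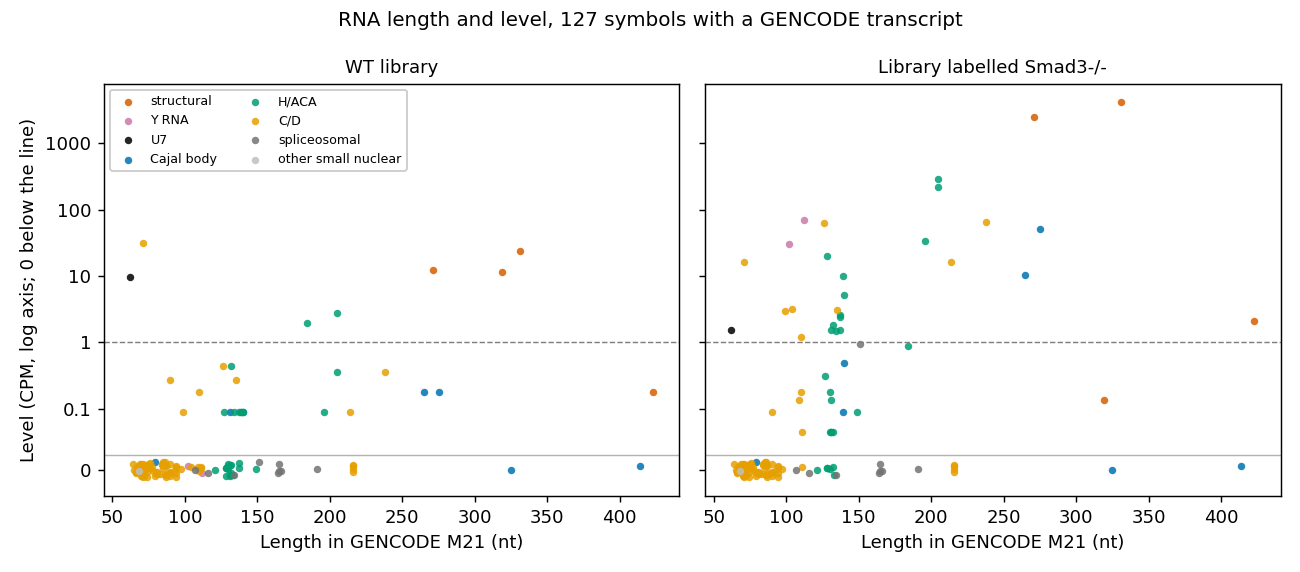
Level in CPM (log axis, 0 drawn below the grey line with a small vertical scatter) against GENCODE length in bases for 127 RNAs, in the WT library and in the library labelled Smad3-/-, coloured by class. In Smad3-/- 9 of 16 RNAs of 200 bases or more are above the dashed line of 1 CPM, against 2 of 36 under 80 bases.

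Position relative to other genes was mixed. Of the 30 RNAs, 16 lay in an intron of another gene on the same strand, 4 overlapped an exon (Rnu7 in Grcc10, Snora73a in Snhg3, Snora7a in Rpl32, Snord22 in Snhg1) and 10 lay outside other genes. Of the 76 at 0 it was 61, 5 and 10. Host genes that are rows of the tables numbered 18. In Smad3-/- against WT, 6 of the 18 were higher, 3 were lower and 9 passed in neither direction, beside 24.2% of all genes higher and 25.2% lower. In the double heterozygote against WT it was 2, 2 and 14 of 18, beside 21.6 and 19.1%. Snx5, the host of Snord17, was 2.07-fold higher in Smad3-/- (1.97 to 2.18) while Snord17 itself was 181-fold higher. Snhg1, the host of Snord22, was 1.80-fold lower (1.58 to 2.04) while Snord22 was 143-fold higher. Snhg3 was 1.42-fold lower (1.12 to 1.81) and Rcc1 3.70-fold higher (3.30 to 4.15), both of which hold the Snora73 pair. Snord17, Snord22 and Snora73a passed the filter only through the Smad3-/- library, so these sizes are descriptions. Other pairs ran differently. Ipo7 was 3.84-fold higher in Smad3-/- (3.63 to 4.08), while Snora23 in its intron was 2.19-fold lower (1.14 to 4.23). Rps2 was 43.8-fold lower (11.4 to 373) with 2 counts in Smad3-/-, while Snora64, itself past the filter only through that library, was 16.6-fold higher (2.77 to 674). No one relation between an RNA and its host held over these pairs.

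For each pair of libraries, an RNA was called higher or lower where the whole 95% interval of the count ratio lay beyond 1.5-fold. In Sptbn1+/- against WT 1 of the 30 was higher (Rn7sk) and 0 were lower, beside 0.634% of all 14824 genes higher and 1.19% lower. In Sptbn1-/- against WT 3 were higher (Rn7sk, Rmrp and Rpph1) and 0 were lower, beside 0.648 and 0.411% of all genes. With intervals widened to hold the spread of the allele-dose fit, 0 were higher in either Sptbn1 library. That spread was taken over all 6 libraries (coefficient of variation 0.467, against 0.112 over the 4 with fewer reads on genes). Intervals so wide cannot pass a ratio as small as the 3.15 of Rn7sk, so this 0 decides nothing. By the counting intervals at 2-fold, only Rn7sk was higher, in both. In Smad3+/- none passed in either direction, beside 1.64% higher and 4.45% lower. The 3 RNAs higher in Sptbn1-/- were all structural RNAs, and the 7 RNAs that reached 1 CPM in at least 2 libraries had a median log2 ratio to WT of 0.61 there and 0.53 in Sptbn1+/-, against -0.0015 and -0.0053 over all genes. These 2 comparisons share the WT library.

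In Smad3-/- against WT 26 of the 30 were higher and 3 lower (Rpph1, Rnu7 and Snord123), beside 24.2% of all genes higher and 25.2% lower. Of the 30, 23 reached 1 CPM in the Smad3-/- library alone and so had to be higher there, and the count is therefore only a description. Among the other 7 (Rmrp, Rn7sk, Rnu7, Rpph1, Snora23, Snora73b and Snord123), 3 were higher, 3 were lower and Snora23 was neither, with a median log2 ratio of -0.93 against 0.05 for all genes. The median over all 30 was 5.70, and 5.46 with counts of 0 set to 3. The members nearest the filter were Snord8 at 1.27, Snora64 at 1.55 and Snora16a at 1.59 CPM of counts on genes inside it, and Rnu12 at 0.985 and Snora3 at 0.871 outside it.

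In the double heterozygote against WT 0 of the 30 were higher and 7 lower (Rmrp, Rn7sk, Rpph1, Rnu7, Snora23, Snora73b and Snord17), beside 21.6% of all genes higher and 19.1% lower. Among the 7 RNAs that reached 1 CPM in at least 2 libraries 6 were lower, and Snord123 did not pass. Of these 7, only Rnu7 and Snord123 reached 1 CPM in the double heterozygote. The others passed the filter through other libraries, which favours a low level here, so this count is only a description. With the widened intervals 4 of the 30 were lower, with no share of all genes to set beside it. The same 7 RNAs had a median log2 ratio of -5.25, and -4.35 with counts of 0 set to 3, under the same limit. It was 0.06 over all 14824 genes, which needed 1 CPM in only 1 library. Between the Smad3-/- and double heterozygous libraries 27 RNAs were higher and 2 lower (Rnu7 and Snord123) in the first, beside 19.8 and 23.3% of all genes. Since 23 of the 30 are members through the Smad3-/- library alone, the first count is only a description. Among the other 7, 4 were higher, 2 were lower and Rpph1 was neither. With the widened intervals 0 were lower, but ratios as small as 2.27 for Rnu7 and 2.06 for Snord123 cannot pass them. Rmrp was 9743-fold (4945 to 22570) and Rn7sk 6863-fold (4395 to 11400) higher in Smad3-/- than in the double heterozygote, the former from 55888 counts against 8.

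**Figure D4:**
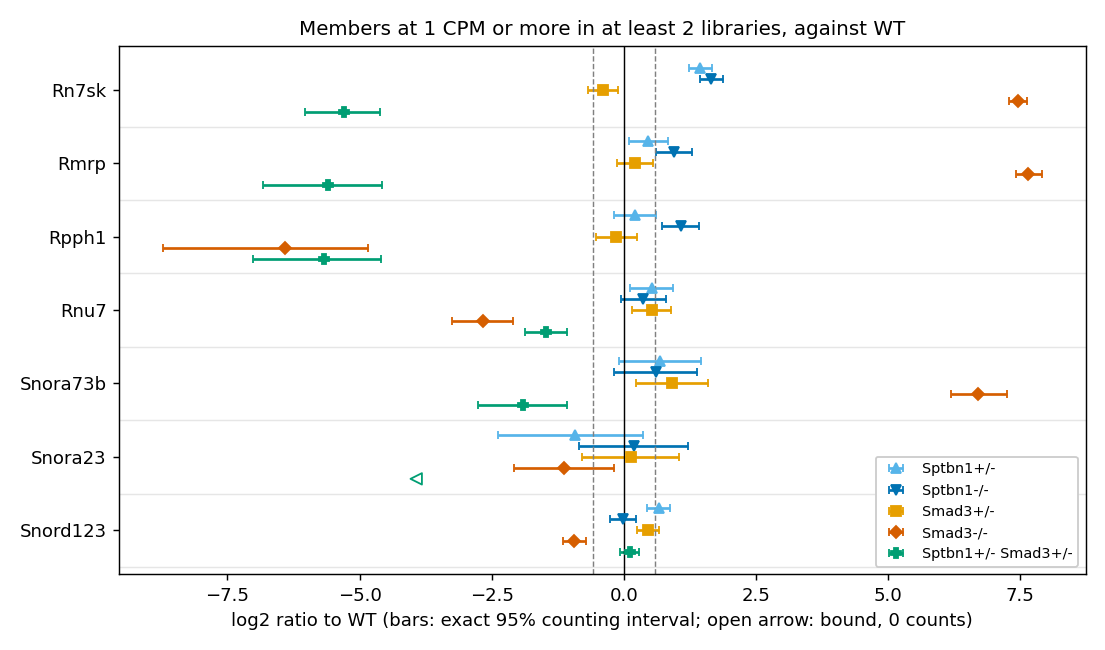
log2 ratio to WT, with exact 95% counting intervals, of the 7 RNAs at 1 CPM or more in at least 2 libraries, for each of the 5 mutant libraries. Dashed lines mark 1.5-fold and the open arrow a 95% limit from a count of 0. Rn7sk, Rmrp and Snora73b are above WT in Smad3-/- and below it in the double heterozygote, while Rpph1 and Rnu7 are below it in both.

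A fit over all 6 libraries to mutant allele dose, with a term for each of Sptbn1 and Smad3, gave no call. In edgeR's quasi-likelihood test with Benjamini-Hochberg adjustment, 0 of the 7 testable RNAs and 0% of 14091 genes passed an adjusted p of 0.05 for Sptbn1, and likewise 0 and 0% for Smad3. At an unadjusted p under 0.05 the counts were 0 of 7 for Sptbn1 and 1 of 7 for Smad3, which was Snora73b at 3.02 log2 per mutant Smad3 allele (adjusted p = 0.184, edgeR). The DESeq2 Wald test called 0 of 7 for Sptbn1 and 3 of 7 for Smad3, beside 0% and 14.5% of all genes (2048 of 14091 for Smad3). The common biological coefficient of variation was 0.467 over the 6 libraries and 0.112 over the 4 with fewer reads on genes. In a fit to those 4 alone, 0 of the 7 passed for either gene, beside 0.00725% of all genes for Sptbn1 (1 of 13786) and 2.76% for Smad3 (381 of 13786). In that fit, which has 1 residual degree of freedom, Rmrp had an estimate of 0.47, Rn7sk of 0.81 and Rpph1 of 0.53 log2 per mutant Sptbn1 allele. Their adjusted p was 1.00 each (edgeR), and the unadjusted values were 0.0031, 0.0356 and 0.00351.

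Genes of the proteins that bind, modify, transcribe and decay these RNAs were taken from 9 lists of 106 in all, of which 103 were tested. Only their RNA was measured. In Smad3-/- against WT, 51 were higher and 7 lower, beside 24.2 and 25.2% of all genes, with a median log2 ratio of 0.76 against 0.05 for all genes. The core proteins of spliceosomal particles had 14 of 26 higher and 0 lower, those of H/ACA particles 5 and 1 of 8, and those of C/D particles 5 and 1 of 9. The protein subunits of RNase P and MRP had 6 of 10 higher and 0 lower, and those of the 7SK particle 1 and 1 of 7. Of the Sm protein genes, Snrpd3 was at 43.8 CPM in Smad3-/- and 5.48 in WT, 7.99-fold higher (6.17 to 10.5). Snrpb was at 232 and 38.8 CPM, 5.98-fold higher (5.42 to 6.60). Tgs1, whose protein forms the trimethylated cap of spliceosomal RNA, was at 25.1 CPM in Smad3-/- and 75.0 in WT. The exonuclease gene Xrn1 was at 42.6 and 120 CPM.

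In the double heterozygote 16 of the 103 were higher and 20 lower, beside 21.6 and 19.1% of all genes, with a median log2 ratio of -0.06 against 0.06. These counts lie near the shares of all genes, and the genes named here are examples taken by the naming rule. Snrpd3 was 9.60-fold higher (7.45 to 12.6) and the RNA polymerase III factor Brf2 4.36-fold higher (2.90 to 6.85), while Snrpg was 6.09-fold lower (4.54 to 8.26) and the P-TEFb cyclin Ccnt1 3.00-fold lower (2.67 to 3.36). In Sptbn1+/- 1 of the 103 was higher and 0 lower, beside 0.634 and 1.19% of all genes. It was Fbl, the C/D methyltransferase, 3.70-fold higher (1.61 to 9.23), at low levels of 0.796 CPM in WT and 2.94 in Sptbn1+/-. In Sptbn1-/- 0 passed in either direction, beside 0.648% higher and 0.411% lower. In Smad3+/- 1 was higher and 0 lower, beside 1.64 and 4.45%. It was Nhp2l1, which binds C/D RNAs and U4, 2.37-fold higher (1.81 to 3.13). Each count of 1 lies near the share of all genes higher. Between Smad3-/- and the double heterozygote 49 were higher and 2 lower, beside 19.8 and 23.3% of all genes. Dkc1, the H/ACA pseudouridine synthase, was 4.27-fold higher (3.96 to 4.61) and Gemin6 of the SMN complex 4.22-fold higher (3.42 to 5.24), while Cdk9 of P-TEFb was 2.12-fold lower (1.94 to 2.33) and Ints9 of the Integrator complex 1.87-fold lower (1.65 to 2.13).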

How the data were processed

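Total RNA was extracted with TRIZOL, and 1 ug went into an Illumina TruSeq RNA kit, per the labels' protocols. How RNA was selected or sized, the strand setting, the counting mode, the gene models and the roles of the tools are not given in the sources used here. For each library the authors deposited unscaled read counts by gene symbol. Tools listed by the submitters' processing notes are TopHat2 2.0.10, HTSeq, Trimmomatic, FastQC and DESeq2, and the build listed is mm9. Library sizes exclude the 5 summary lines at the end of each table. The reads on no gene, several genes or several sites are thus outside every level.

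Library sizes were scaled with TMM (edgeR 4.0.16, R 4.3.3). The filter used CPM of unscaled counts on genes. Ratios were computed for all genes past it, with exact Clopper-Pearson 95% intervals (scipy 1.17.1). A call needed the whole interval beyond 1.5-fold, and pairs of libraries have no p-value. Intervals and the floor of 3 counts cover counting error only, since each genotype has 1 library. PCR reads lacking molecular identifiers are not independent, so even the counting error may be larger than the intervals show. Fold bounds against 0 counts are the nearer 95% limits, the floor limits levels, and median log2 ratios add 0.5 counts. The allele-dose fit used edgeR's quasi-likelihood test with 3 residual degrees of freedom on genes at 1 CPM or more in at least 2 libraries. It assumes an equal effect of each allele. Both steps were tested on simulated data. Lengths, positions, hosts and shared 50-base stretches come from GENCODE M21, matched by symbol for 127 of 128. The gene models behind the counts may differ.

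The members, classes and lists were chosen with earlier results of these data known. Named were all members of classes with at most 10, the 12 C/D and 12 H/ACA members highest by mean CPM, and per pair up to 3 called in each direction, with 2 partner proteins per direction. Snora16a, the RNAs under the filter or at 0, and genes used as checks of the libraries were named after their values were seen. Alternatives were other scalings, filters, folds, wider intervals, DESeq2 1.42.0, carriers against non-carriers and leaving out each library. The filter of 1 CPM in at least 2 libraries and the fit to 4 libraries were added after the data were seen.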

Additional observations from a re-analysis of the deposited data

Results flagged for a closer look

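The summary lines of the count tables hold reads that no gene received, and some exceeded the WT level. Reads assigned to several genes at once made up 0.395% of all records in WT, 0.413% in Smad3+/- and 0.827% in the double heterozygote, against 0.0251% in Smad3-/-. Rnu7 and Snord22 lie inside exons of other genes, and how many of these reads lie on them was not analysed here. Reads placed at several sites made up 42.9% of records in WT, 46.4% in Sptbn1+/-, 47.1% in Sptbn1-/- and 43.8% in Smad3+/-. Which RNAs these reads came from was not analysed here.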

How the results depend on the processing

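No result reversed under the alternatives run. With intervals widened to hold the spread seen in the fit to allele dose, the RNAs higher than WT were 0 in Sptbn1+/- (1 before) and 0 in Sptbn1-/- (3 before), those lower in the double heterozygote were 4 (7 before), and those lower in Smad3-/- than in the double heterozygote were 0 (2 before). Intervals of that width cannot pass ratios as small as those behind the 3 counts of 0. No share of all genes goes with these widened counts. By counting intervals at 2-fold, 1 was higher in Sptbn1-/- and 0 were lower in Smad3-/- than in the double heterozygote. That last count was 1 with total counts as library size and 1 with totals that leave out these RNAs, histone genes, ribosomal RNA, Malat1 and Neat1. Against WT, the RNAs higher in Smad3-/- were 15 at 5 CPM, 15 at a mean of 1 CPM and 3 at 1 CPM in at least 2 libraries, where fewer RNAs were counted (18, 19 and 7). Against the double heterozygote they were 15, 16 and 4. No share of all genes is given for these filters, so the counts are only descriptions. The DESeq2 Wald test called 3 RNAs for Smad3 dose, against 0 by edgeR, and the cause was not tested. Leaving out each library in turn gave 0 to 0 called RNAs for either gene. Of 222 log2 ratios per scaling, 221 kept their call with DESeq2 size factors, 218 with total counts and 213 with reduced totals. Reduced totals moved the median of all genes by -0.13 log2 in the double heterozygote against WT, and other shifts were smaller. No paired analysis was possible because each genotype has 1 library and the labels give no replicate numbers. Depth limits the RNAs at 0 to 3 counts outside Smad3-/-, whose ratios have wide intervals.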
